A study of Mus musculus with 6 samples.

Results

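The Gimap family genes, whose products are the GTPases of immunity-associated proteins, were followed in bone marrow (BM) cells of mice with JAK3-driven T-cell acute lymphoblastic leukemia (T-ALL). The members were the genes named Gimap1, Gimap3, Gimap4, Gimap5, Gimap6, Gimap7, Gimap8 and Gimap9, chosen by name alone, which are 8 of the 54532 genes in the deposited table. All 8 passed the filter on low values, which kept genes with 1 FPKM or more in 3 or more libraries and left 13393 genes to test. FPKM is the number of sequenced fragments relative to the length of the gene and the size of the library, so it can be compared between genes of different length.

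All 6 libraries came from C57BL/6 mice on day 100 after transplantation. In both groups the transplanted lineage-negative cells carried JAK3 M511I, an activating change of a Janus kinase that was delivered with a GFP-marked MSCV retrovirus, and donors and recipients were male. The 3 wild-type (WT) libraries carried the floxed Phf6 allele without a recombinase (Phf6 fl/y). The 3 knockout (KO) libraries were labelled as lacking Phf6, an X-linked chromatin protein, and the profiles in the study are of Vav1-Cre;Phf6 fl/y cells, in which Cre is driven in blood cells. The hosts were irradiated, so a library may hold host blood cells beside donor cells, and the labels do not say whether RNA came from sorted GFP+ cells. The genotype labels name Phf6, Phf7 and Phf8 within each group, and they were read as Phf6, the gene in the design text. Whether a library is from 1 mouse is not stated either, so p-values measure the spread between these libraries.

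By their labels the libraries are named WT 1, WT 2, WT 3, KO 1, KO 2 and KO 3, and values are given in that order. Phf6 RNA did not separate the groups, with a log2 fold change of -0.073 ± 0.33 (SE; limma, adjusted p = 0.893), so the groups below are those of the labels. Only some exons of Phf6 were floxed in the study, so FPKM over the whole gene need not fall in a knockout. The study examined Phf6 protein and mRNA in such leukemia cells by other assays. The reads on annotated genes, recovered from the FPKM values, came to between 13015823 and 18235095 per library. WT 2 stood apart: its values correlated with WT 1 and WT 3 at a Pearson r of 0.779 and 0.746 across genes, against 0.948 or more within the other pairs of the same label, and its FPKM values summed to 897352, against 244936 to 329893 in the other 5. RNA of T-cell markers was present in both groups: none of 12 such markers lay under 1 FPKM in every library of either group. Presence does not show that a library is mostly T cells. Neutrophil markers summed to 6674 to 93805 FPKM in the WT-labelled and to 91.4 to 282 FPKM in the KO-labelled libraries. The 12 T-cell markers summed to 1079 to 2185 and to 1149 to 1278 FPKM. The 3 chains of CD3 summed to an FPKM of 175, 742 and 220 across WT 1 to WT 3 and of 292, 240 and 231 across KO 1 to KO 3. The CD3 sum overlapped between the groups through WT 2 alone, and without it all 3 KO-labelled libraries lay above WT 1 and WT 3.

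GIMAP proteins bind guanine nucleotides through a domain of the AIG1 type, related to that of the septins, and several of them sit on intracellular membranes as scaffolds. They are expressed mainly in lymphocytes and are known for their effects on lymphocyte survival. Loss of Gimap5, a lysosomal member, causes a loss of peripheral T cells, and Gimap1 is needed for mature T and B cells. Gimap4 is induced on pre-TCR signalling and promotes death of T cells.

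The genes form 1 cluster on chromosome 6 (GRCm38), which runs from 48647234 to 48770851 over 123618 bases and in the order Gimap8, Gimap9, Gimap4, Gimap6, Gimap7, Gimap1, Gimap5 and Gimap3. Gimap6 and Gimap3 lie on the minus strand and the other 6 on the plus strand. In the KO-labelled libraries 6 of the 8 genes fell and none rose (limma on log2(FPKM + 1), Benjamini-Hochberg adjusted p under 0.05). Of all 13393 genes tested, 13.3% were called lower and 13.1% higher. The median log2 fold change of the members was -2.82, against 0.086 over all genes tested. Without WT 2, 7 members were called lower beside 25.3% of all genes. BM is a mixture of cells, and fewer cells of a type and less RNA per cell cannot be told apart in these data.

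Gimap3 and Gimap4 changed most within the family. Gimap3 (ENSMUSG00000039264, chromosome 6, 48764464 to 48770851) encodes a membrane-anchored member known for an influence on the segregation of mitochondrial DNA. Its FPKM was 365, 325 and 622 across WT 1 to WT 3 and 4.75, 1.31 and 4.22 across KO 1 to KO 3. The lowest WT-labelled library was 68.5 times the highest KO-labelled one, so the groups lay far apart. The mean fell from 438 ± 161 to 3.42 ± 1.85 FPKM (SD, n = 3 each), a 128-fold difference. On the log2(FPKM + 1) scale the fold change was -6.68 ± 0.45 (SE; limma, adjusted p = 0.000315), and 16 of the 13393 genes tested, or 0.119%, had a fold change at or below it, Gimap3 included. By mean FPKM, Gimap3 ranked 164th among the genes tested in the WT-labelled and 8918th in the KO-labelled libraries.

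The low level of Gimap3 rested on 228, 53 and 175 reads across KO 1 to KO 3, against 14534, 9859 and 24848 across WT 1 to WT 3. The 95% Poisson interval of the FPKM was 0.978 to 1.71 in KO 2, below the intervals of 4.15 to 5.41 in KO 1 and 3.62 to 4.89 in KO 3. These intervals treat each read as independent, and they are too narrow where PCR copies of 1 molecule were counted more than once. Gimap3 was thus detected in all 3 KO-labelled libraries, with the fewest reads in KO 2.

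Gimap4 (ENSMUSG00000054435, chromosome 6, 48684549 to 48692060) had an FPKM of 351, 256 and 420 in the WT-labelled and 20.7, 7.19 and 11.1 in the KO-labelled libraries, in the order of their numbers. The groups did not overlap, with the lowest WT-labelled library at 12.4 times the highest KO-labelled one. KO 1 held 2.87 times the level of KO 2, the lowest of the 6 for both Gimap4 and Gimap3. The log2 fold change was -4.70 ± 0.42 (SE; limma, adjusted p = 0.000742). The calls of Gimap3, Gimap4 and Gimap7 were kept under all 20 alternatives tried, with log2 fold changes from -7.11 to -6.17, from -5.08 to -3.95 and from -3.65 to -2.69.

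**Figure D1:**
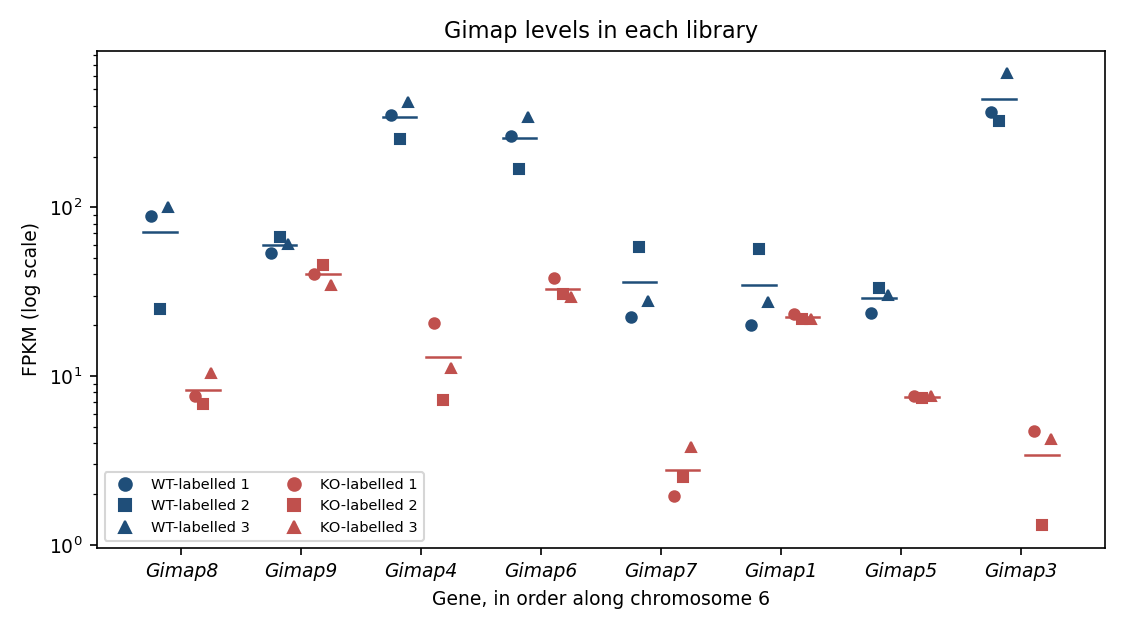
FPKM (log axis) of each Gimap gene in the 3 WT-labelled (blue) and 3 KO-labelled (red) libraries; a marker shape stands for a replicate number and a line for the group mean, and genes follow the order of the chromosome. Gimap3 sits at 325 to 622 FPKM in the WT-labelled and at 1.31 to 4.75 in the KO-labelled libraries, while the groups of Gimap1 overlap.

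Gimap6, Gimap7 and Gimap8 formed a middle range. Gimap6 (chromosome 6, 48701582 to 48708225), which binds the autophagy protein GABARAPL2, had an FPKM of 266, 169 and 341 across WT 1 to WT 3 and of 38.1, 30.7 and 29.4 across KO 1 to KO 3. Its groups did not overlap and the log2 fold change was -2.89 ± 0.34 (SE; limma, adjusted p = 0.00194). With 32.7 ± 4.70 FPKM (SD, n = 3) it remained among the more abundant members in the KO-labelled libraries.

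Gimap7 (chromosome 6, 48718621 to 48724636), a member whose GTPase activity rises on pairing with itself or other members, had an FPKM of 22.4, 58.0 and 27.9 in the WT-labelled and of 1.94, 2.51 and 3.82 in the KO-labelled libraries. WT 2 was the highest library here in FPKM, at 2.30 times the mean of WT 1 and WT 3, but the lowest WT-labelled one in TPM, at 64.6 against 67.9 and 91.2. The log2 fold change was -3.22 ± 0.41 (SE; limma, adjusted p = 0.00245) with all 6 libraries and -2.82 without WT 2.

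Gimap8 (chromosome 6, 48647234 to 48660875) is the longest member and carries 3 GTPase domains, with a coding sequence of 2064 bases against 873 to 984 bases in the other 7. Its FPKM was 88.7, 25.1 and 100.3 across WT 1 to WT 3 and 7.66, 6.80 and 10.5 across KO 1 to KO 3. WT 2 lay at 0.265 times the mean of the other 2 WT-labelled libraries, yet above all KO-labelled ones. The log2 fold change was -2.75 ± 0.55 (SE; limma, adjusted p = 0.0124). This call was lost without KO 1 (adjusted p = 0.0564) and without KO 2 (adjusted p = 0.0589), in fits whose log2 fold changes were -2.71 and -2.63.

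Gimap5 (ENSMUSG00000043505, chromosome 6, 48746197 to 48754210), the lysosomal member, changed less. It had an FPKM of 23.8, 33.5 and 30.3 in the WT-labelled libraries and of 7.61, 7.46 and 7.62 in the KO-labelled ones, where its level varied least of all members. The log2 fold change was -1.80 ± 0.23 (SE; limma, adjusted p = 0.00241). Gimap5 and Gimap3 are neighbours and each other's closest relatives in sequence, with 87.9% identity over their aligned coding bases, against 64.9% for the next pair, Gimap9 and Gimap7. Gimap3 was the most abundant member in the WT-labelled libraries at 9.72 to 20.5 times Gimap5, and lay below Gimap5 in the KO-labelled ones at 0.175 to 0.624 times its level. Of the stretches of 50 bases in the Gimap3 transcripts, 7.52% occur in Gimap5 too, and 4.53% of those of Gimap5 occur in Gimap3. How reads that match both genes were counted is not stated in the sources used here, so part of either value may come from the other gene.

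Gimap1 and Gimap9 were not called. Gimap9 (chromosome 6, 48676129 to 48679114) had an FPKM of 53.5, 66.4 and 60.7 across WT 1 to WT 3 and of 40.4, 45.7 and 34.9 across KO 1 to KO 3. All 3 KO-labelled libraries lay below all 3 WT-labelled ones, but the log2 fold change of -0.57 ± 0.24 (SE) missed the threshold (limma, adjusted p = 0.139). It passed without WT 2, at -0.50 (adjusted p = 0.0391), and its sign turned on rescaling to TPM, at 0.26 (adjusted p = 0.655).

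Gimap1 (chromosome 6, 48739054 to 48743795) had an FPKM of 20.0, 56.9 and 27.6 in the WT-labelled and of 23.5, 21.8 and 21.7 in the KO-labelled libraries. The groups overlapped, since every KO-labelled library exceeded WT 1 and only WT 2 stood well above them. The log2 fold change was -0.49 ± 0.40 (SE; limma, adjusted p = 0.421) and -0.073 without WT 2, and its sign turned on rescaling to TPM, at 0.34 (adjusted p = 0.422). Of the transcribed stretches of 50 bases in Gimap1, 35.5% are shared with other genes, most of them with the antisense gene Gimap1os. In the 7 other members the groups did not overlap, all with the KO-labelled libraries lower, a pattern found in 22.9% of all genes tested.

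TPM rescales each library to the same FPKM sum, and so moved WT 2 most. The median over all genes shifted from 0.086 to 0.86 on the log2 scale and that of the members from -2.82 to -2.06, so that their distance from the median gene stayed alike. With TPM, 3 members were called lower, Gimap3, Gimap4 and Gimap7, beside 8.07% of all genes, and higher calls made up 67.8% of all calls, against 49.6% on FPKM. Gimap5, Gimap6 and Gimap8 had log2 fold changes of -1.07, -2.08 and -2.03 on this scale, with adjusted p values of 0.113, 0.0605 and 0.145 (limma). Without WT 2, an alternative chosen after the data were seen, the TPM fit called the same 6 members as the fit on FPKM, beside 18.5% of all genes.

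**Figure D2:**
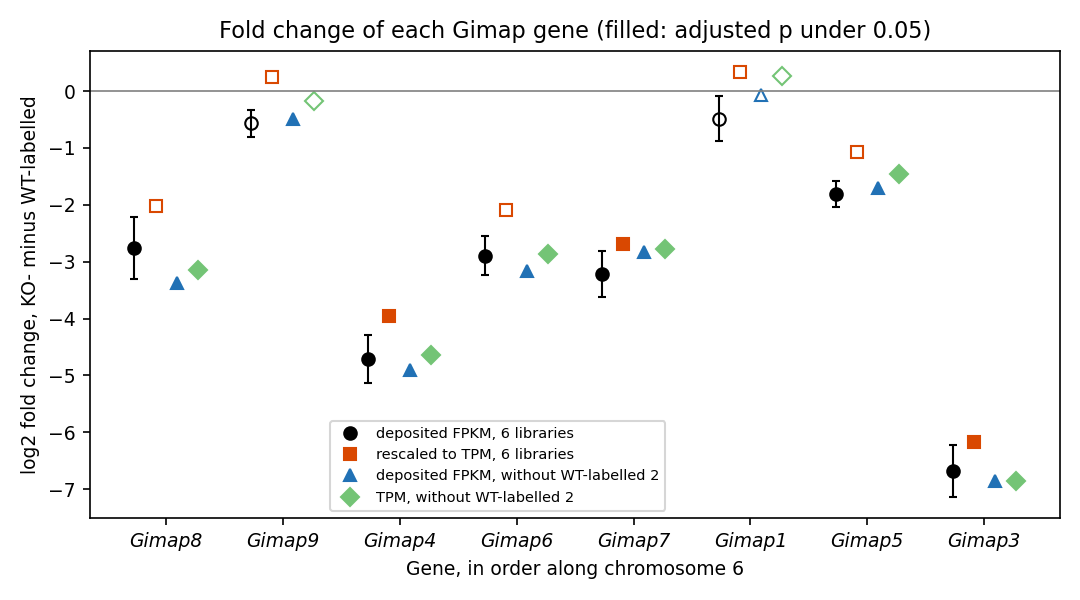
Log2 fold change (KO-labelled minus WT-labelled) of each Gimap gene on the log2(value + 1) scale in 4 fits, with the SE drawn for the fit on deposited FPKM with 6 libraries; filled symbols passed an adjusted p of 0.05 (limma). Gimap3 lies between -6.86 and -6.17 in all 4. Gimap1 lies between -0.49 and 0.34 and is not called, and Gimap9 lies between -0.57 and 0.26. Of the 4 fits, Gimap9 is called only in that on FPKM without WT 2, at -0.50.

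The order of the genes by level changed between the groups. In the WT-labelled libraries the mean FPKM fell from Gimap3 through Gimap4, Gimap6, Gimap8, Gimap9, Gimap7 and Gimap1 to Gimap5. Only the step from Gimap6 to Gimap8 separated neighbours in this order without overlap. In the KO-labelled libraries Gimap9 was highest, followed by Gimap6, Gimap1, Gimap4, Gimap8, Gimap5, Gimap3 and Gimap7. Neighbours in that order were separated at the steps from Gimap6 to Gimap1, from Gimap1 to Gimap4 and from Gimap5 to Gimap3.

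The summed FPKM of the 8 genes was 1191, 989 and 1629 across WT 1 to WT 3 and 145, 124 and 123 across KO 1 to KO 3, a 9.74-fold difference of the means (6.43-fold in TPM). Shares within that sum do not depend on the scaling of a library. Gimap3, Gimap4 and Gimap6 together made up 75.8% to 84.9% in the WT-labelled and 31.8% to 43.9% in the KO-labelled libraries. Gimap3 alone went from 33.9% ± 3.86 to 2.59% ± 1.33, and Gimap4 from 27.0% ± 2.13 to 9.71% ± 4.28 (SD, n = 3 each). Gimap9 went the other way, from 4.98% ± 1.55 to 31.1% ± 5.12, and Gimap1 from 3.04% ± 2.34 to 17.2% ± 0.818. The shares of Gimap6 and Gimap5 were also higher in all KO-labelled libraries, at 23.8% to 26.4% against 17.0% to 22.3% and at 5.26% to 6.18% against 1.86% to 3.38%. For these 6 genes the groups did not overlap, and each reached p = 0.1 in an exact two-sided permutation test, the smallest p that 3 libraries against 3 allow (0.133 after adjustment over the 8 genes). Gimap8 and Gimap7 overlapped, with exact p values of 0.6 and 0.7.

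**Figure D3:**
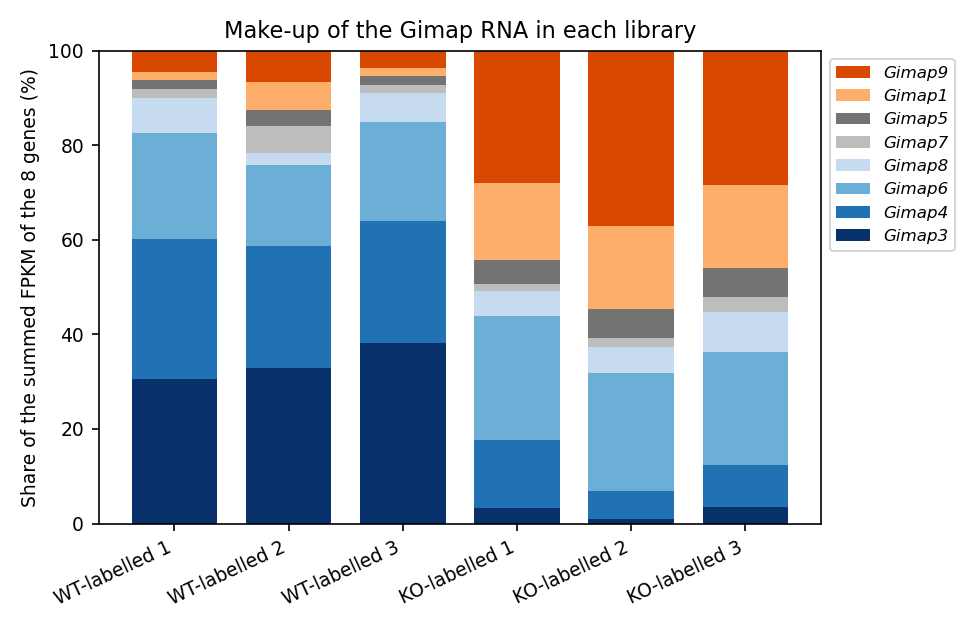
Share (%) of each Gimap gene in the summed FPKM of the 8 genes, 1 bar per library. The 3 blue shades at the base (Gimap3, Gimap4 and Gimap6) fill 75.8% to 84.9% of the WT-labelled bars and 31.8% to 43.9% of the KO-labelled bars, where Gimap1 and Gimap9 (orange shades) fill 44.2% to 54.7%.

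Set against the RNA of the CD3 chains, a measure of T-lineage RNA in the same library, the Gimap sum was 6.82, 1.33 and 7.40 times the CD3 sum across WT 1 to WT 3. It was 0.495, 0.516 and 0.533 times the CD3 sum across KO 1 to KO 3. WT 2 fell closest to the KO-labelled libraries with its CD3 sum of 742, yet it stayed above them. The chains disagreed in WT 2: Cd3d was 561 FPKM, against 89.8 in WT 1 and 109 in WT 3. Cd3e was 22.6 FPKM, against 42.7 and 60.0, and lowest of all libraries. Genes under 1000 bases held 17.1% of the reads of WT 2, against 3.11% to 5.01% in the others. The CD3 sum of WT 2 may therefore not measure T-lineage RNA as in the other libraries. Per CD3, Gimap3, Gimap4, Gimap5, Gimap6 and Gimap7 did not overlap between the groups, as did 14.5% of all genes with the KO-labelled libraries lower, while Gimap1, Gimap8 and Gimap9 overlapped. These 3 overlaps came from WT 2 alone: in WT 1 and WT 3 all 3 genes lay above every KO-labelled library, Gimap8 at 0.456 or more against 0.0454 or less and Gimap9 at 0.276 or more against 0.191 or less. Gimap1 per CD3 was 0.115, 0.0767 and 0.125 in the WT-labelled and 0.0803, 0.0912 and 0.0938 in the KO-labelled libraries.

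**Figure D4:**
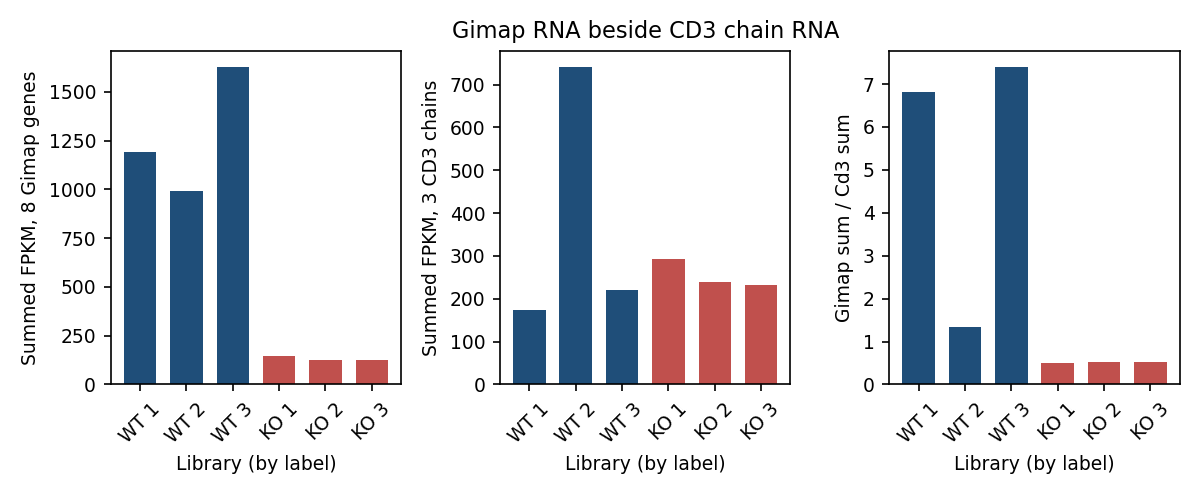
Summed FPKM of the 8 Gimap genes, summed FPKM of the 3 CD3 chain genes, and their ratio, 1 bar per library (WT-labelled blue, KO-labelled red). The ratio is 1.33 to 7.40 in the WT-labelled and 0.495 to 0.533 in the KO-labelled libraries, while the CD3 sum of WT 2 is 742 and those of WT 1 and WT 3 lie below all KO-labelled ones.

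Transcription start regions were read for all 8 members from RefSeq (GRCm38.p6), as 250 bases before and 50 bases after a start, which gave 9 windows because Gimap8 has 2. Those of the 2 genes that fell most and of the 2 that were not called are shown so that they can be compared. Capitals mark matches, on either strand, to letters that stand for motifs of factor families of T cells: AGGAAG (ETS), TGTGGT (RUNX), TTCNNNGAA (STAT), TGGGAA (RBPJ) and CCNCNCCC (KLF), where N is any base. The windows are chr6:48770802-48771101 on the minus strand for Gimap3, chr6:48684328-48684627 on the plus strand for Gimap4, chr6:48738797-48739096 on the plus strand for Gimap1 and chr6:48675885-48676184 on the plus strand for Gimap9.
Gimap3: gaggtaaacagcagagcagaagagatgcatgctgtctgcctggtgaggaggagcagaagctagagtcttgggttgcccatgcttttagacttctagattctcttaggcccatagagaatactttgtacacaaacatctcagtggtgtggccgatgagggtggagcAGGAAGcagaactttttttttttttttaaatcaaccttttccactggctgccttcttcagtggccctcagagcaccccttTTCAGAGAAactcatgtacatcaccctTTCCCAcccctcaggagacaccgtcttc
Gimap4: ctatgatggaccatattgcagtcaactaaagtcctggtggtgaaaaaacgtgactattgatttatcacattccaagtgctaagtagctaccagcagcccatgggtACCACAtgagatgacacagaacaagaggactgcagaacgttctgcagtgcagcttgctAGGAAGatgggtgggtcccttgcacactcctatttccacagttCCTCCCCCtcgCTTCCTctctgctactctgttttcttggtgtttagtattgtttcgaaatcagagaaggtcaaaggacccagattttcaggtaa
Gimap1: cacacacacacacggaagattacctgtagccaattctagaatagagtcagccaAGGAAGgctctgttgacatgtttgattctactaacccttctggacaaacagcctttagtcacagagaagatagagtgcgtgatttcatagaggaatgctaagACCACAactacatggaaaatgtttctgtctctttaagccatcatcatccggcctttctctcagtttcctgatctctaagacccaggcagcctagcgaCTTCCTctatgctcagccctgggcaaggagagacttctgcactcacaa
Gimap9: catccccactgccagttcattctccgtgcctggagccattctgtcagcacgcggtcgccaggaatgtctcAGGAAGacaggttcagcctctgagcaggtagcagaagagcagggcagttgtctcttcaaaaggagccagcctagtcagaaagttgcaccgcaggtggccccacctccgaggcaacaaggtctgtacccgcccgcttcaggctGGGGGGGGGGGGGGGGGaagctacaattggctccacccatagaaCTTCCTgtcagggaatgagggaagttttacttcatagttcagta

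Of the 32544 RefSeq windows of this length in the mouse, 35.1% hold the ETS letters, 16.7% the RUNX letters, 8.33% the STAT letters, 25.4% the RBPJ letters and 49.7% the KLF letters. Gimap3 held 1 ETS, 1 STAT and 1 RBPJ match, the STAT match at 5 bases before the start. Gimap4 held 2 ETS matches, 1 RUNX and 1 KLF match. Gimap1, which was not called, held 2 ETS matches and 1 RUNX match, as many of each as Gimap4. The matches of Gimap9 were 2 of ETS and a run of G in which 10 overlapping KLF matches fall. Among the other members, Gimap6 held 1 STAT match, Gimap5 1 ETS match, and Gimap7 1 match each of ETS, RUNX, STAT and KLF, while the 2 windows of Gimap8 share 1 KLF match and the second also holds an ETS and a STAT match that overlap. The windows held 2 to 8 CG dinucleotides, against a median of 7 over all windows. A match describes the letters and is no measurement of binding.

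The genes around the cluster were taken to 500000 bases on either side, which added 52 genes, 20 of them without a read in any library. Of the 10 protein-coding genes tested there, 5 fell and none rose, beside the 13.3% of all genes called lower. All 5 lay under 1 FPKM in every KO-labelled library, so they passed the filter through the WT-labelled libraries alone and could only fall. The filter thus set the direction of these 5 calls, and their count is no result about the neighbouring genes. The nearest on the Gimap8 side, AI854703, had an FPKM of 1.93, 3.48 and 1.72 across WT 1 to WT 3 and of 0, 0 and 0.0144 across KO 1 to KO 3, with a log2 fold change of -1.71 ± 0.23 (SE; limma, adjusted p = 0.00312). The zinc finger genes Zfp775 and Repin1 follow on that side, with log2 fold changes of -1.06 ± 0.16 and -1.27 ± 0.18 at mean WT-labelled levels of 1.37 and 1.49 FPKM. On the Gimap3 side lie Tmem176b and Tmem176a, a pair of membrane protein genes of myeloid and some lymphoid cells, with log2 fold changes of -3.07 ± 0.51 and -2.30 ± 0.42. In FPKM, WT 2 was highest for both, at 24.0 and 9.94, as it was for the summed markers of monocytes and macrophages and of erythroid cells. The FPKM values of WT 2 were also the highest in sum, and these orders may rest on that scale. The other 5, Krba1, Lrrc61, Gm28053, Malsu1 and Tra2a, were not called. All 10 had lower WT-labelled means than Gimap3, Gimap4 and Gimap6, the highest being Tra2a at 28.0 FPKM.

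Other annotated genes overlap the cluster itself. Gimap1os, transcribed antisense to Gimap1, had an FPKM of 3.45, 2.69 and 3.81 in the WT-labelled and of 1.40, 1.39 and 1.28 in the KO-labelled libraries. Its log2 fold change was -0.86 ± 0.21 (SE; limma, adjusted p = 0.0259), and the call was lost in 10 of 19 alternatives, among them the fits without WT 1, WT 3, KO 1, KO 2 or KO 3. Gm28053 spans Gimap7 to Gimap5 and shares exon sequence with Gimap7, Gimap1 and Gimap5; at 9 to 66 reads in the WT-labelled libraries it was not called (log2 fold change -0.93, adjusted p = 0.166), but was without WT 2 (-1.37, adjusted p = 0.0073). Whether the counting used strand is not stated in the sources used here, so reads of Gimap1 and Gimap1os cannot be told apart.

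**Figure D5:**
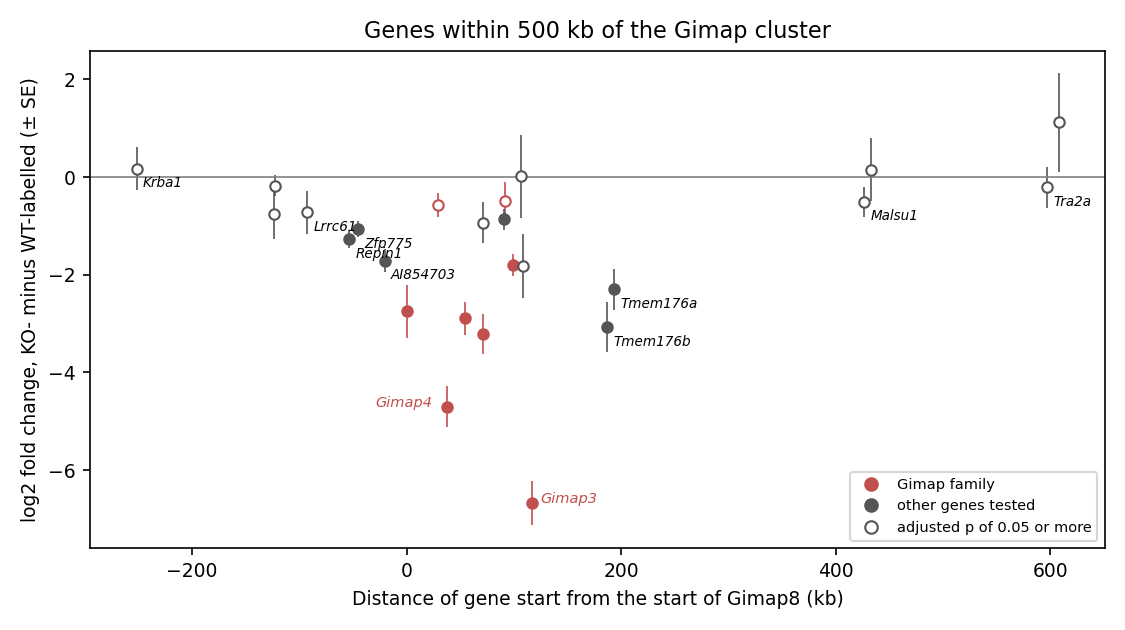
Log2 fold change ± SE (KO-labelled minus WT-labelled, log2(FPKM + 1)) of the genes tested within 500000 bases of the cluster, by distance of the gene's lowest coordinate from that of Gimap8 in kb. Gimap genes are red and other genes grey, and open symbols missed the threshold. Gimap3 at -6.68 and Gimap4 at -4.70 lie lowest, and some genes on both flanks lie below 0. The protein-coding genes called on the flanks passed the filter through the WT-labelled libraries alone.

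GIMAP proteins are known to act with proteins of the BCL-2 family and of autophagy. Of 12 genes listed as partners, among them the chaperone gene Hspa8 and the kinase gene Gsk3b, 4 were called lower and none higher. Their median log2 fold change was -0.90, against 0.086 over all genes tested, of which 13.3% were called lower. In 6 of the 12 all KO-labelled libraries lay below all WT-labelled ones, beside 22.9% of all genes. Gsk3b was higher in all KO-labelled libraries and not called (log2 fold change 0.50, adjusted p = 0.203, limma). Gabarapl2, the GABARAP-like partner of Gimap6, fell by 1.08 on the log2 scale (adjusted p = 0.0187) and Gabarapl1 by 2.34 (adjusted p = 0.0215, limma). Gabarapl1 lay at 0.107, 0.158 and 0.123 FPKM across KO 1 to KO 3. It passed the filter through the WT-labelled libraries alone and could only fall. Bcl2, which protects lymphocytes from apoptosis, had an FPKM of 70.8, 33.9 and 95.2 across WT 1 to WT 3 and of 13.0, 7.79 and 24.9 across KO 1 to KO 3, with a log2 fold change of -2.08 ± 0.53 (SE; limma, adjusted p = 0.0303). Mcl1, named after its values were seen as the last of the 4, fell by 1.01 (adjusted p = 0.0436). These calls were less firm than those of most Gimap genes: of the alternatives, 8 of 20 lost the call for Gabarapl2, 6 of 19 for Gabarapl1, 9 of 20 for Bcl2 and 11 of 20 for Mcl1. The fits without KO 1 and without KO 2 were among them for all 4 genes. In TPM the log2 fold change was -0.18 for Mcl1 (adjusted p = 0.761) and -0.31 for Gabarapl2 (adjusted p = 0.575, limma), and with quantile normalization that of Mcl1 was -0.29 (adjusted p = 0.561).

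Genes that mark stages of T-cell development changed too. Those of late stages mostly fell, as the family did, and those of early stages mostly rose. Of 10 genes of late thymocytes and naive T cells, 8 were called lower and none higher, with a median log2 fold change of -2.78. Over all genes tested, 13.3% were called lower and 13.1% higher, with a median of 0.086. In 1 of the 10 genes all KO-labelled libraries lay above all WT-labelled ones. The FPKM of the 10 genes summed to between 1511 and 2127 in the WT-labelled and between 272 and 312 in the KO-labelled libraries. Klf2, a transcription factor that keeps T cells quiescent, Ccr7, a chemokine receptor for lymph node entry, and S1pr1, the receptor for egress from the thymus, stood at -6.41, -6.32 and -5.31 as log2 fold changes (limma, adjusted p from 0.00034 to 0.000562). Of 10 genes of early thymocytes, 9 were called higher and none lower, with a median of 4.87 and sums of 49.5 to 286 against 1427 to 1739 FPKM. Ptcra, the pre-TCR alpha chain, was listed at 0 in all WT-labelled libraries and had a mean of 155 FPKM in the KO-labelled ones. Notch3 and Il2ra, which encodes CD25, had means of 0.0656 and 1.30 FPKM in the WT-labelled and of 129 and 229.7 FPKM in the KO-labelled libraries. Ptcra and Notch3 lay under 1 FPKM in every WT-labelled library, so they passed the filter through the KO-labelled libraries alone and could only rise. S1pr1 lay under 1 FPKM in every KO-labelled library and could only fall. For these genes the filter set the direction of the call. The part of these stage genes in the Gimap result was not tested.

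Of 12 general T-cell markers, Cd6 and Cd5 were called lower and none higher, with a median log2 fold change of -0.48. This count is near the 13.3% of all genes called lower. Cd6, a co-receptor, had an FPKM of 52.1, 60.0 and 54.8 in the WT-labelled and of 16.4, 4.01 and 5.64 in the KO-labelled libraries. In TPM neither passed, at a log2 fold change of -2.07 for Cd6 (adjusted p = 0.0581) and of -1.02 for Cd5 (adjusted p = 0.224, limma), and Cd5 also missed the threshold without WT 3, KO 2 or KO 3. KO 1 was the highest of the KO-labelled libraries for Cd6, as it was for Gimap3 and Gimap4. The T-cell markers summed to 1079 to 2185 FPKM in the WT-labelled and to 1149 to 1278 FPKM in the KO-labelled libraries, which overlap.

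Markers of other cells that could be in BM moved as well, and their part in the Gimap values was not tested. Over all genes tested, 13.3% were called lower and 13.1% higher. Of 8 NK-cell markers, the 6 tested were all called lower, with sums of 526 to 1288 FPKM in the WT-labelled and 10.8 to 17.1 FPKM in the KO-labelled libraries, where Klra8 and Klra4 were at 0 and 6 of the 8 lay under 1 FPKM. Klre1, Eomes, Klrb1c and Klra8 were tested and lay under 1 FPKM in every KO-labelled library. They passed the filter through the WT-labelled libraries alone and could only fall, so the filter set part of this count. Of 10 B-cell markers, 6 were tested and 1 was called lower, near the share over all genes. Their sums were 16.4, 1355 and 22.8 FPKM across WT 1 to WT 3 and 2.93 to 12.8 FPKM in the KO-labelled libraries. All 10 neutrophil markers were called lower, from sums of 6674 to 93805 FPKM down to 91.4 to 282 FPKM. Of the monocyte and macrophage markers 7 were tested and 3 called lower, with sums of 317 to 4689 against 14.2 to 24.3 FPKM. Cd22, the B-cell marker called, Ly6g of the neutrophil list and Csf1r of the monocyte list also passed the filter through the WT-labelled libraries alone. Their calls, too, could only be lower.

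None of the 8 erythroid markers tested passed, and their sum was 139, 68111 and 532 FPKM across WT 1 to WT 3 and 16.9 to 127 FPKM in the KO-labelled libraries. Neither of the 2 stem and progenitor markers tested was called, at sums of 14.5 to 82.0 and of 6.30 to 14.7 FPKM. For endothelial cells, which also express several Gimap genes, Pecam1 was the 1 marker tested and was called higher, whereas Cdh5, Kdr, Tek, Emcn and Cldn5 lay under 1 FPKM in all 6 libraries. The sum over all 10 endothelial markers was 5.99 to 17.3 FPKM in the WT-labelled and 18.5 to 19.1 FPKM in the KO-labelled libraries, of which Pecam1 made up 5.09 to 10.1 and 17.1 to 18.1 FPKM. In WT 2 the summed markers of B cells, neutrophils, monocytes and macrophages and erythroid cells were highest in FPKM. All FPKM values summed to 897352 in WT 2, against 329893 in WT 1 and 305933 in WT 3. The marker sums were not rescaled to TPM, so their order may rest on that scale. Gimap3, Gimap4, Gimap6 and Gimap8 were lowest of the WT-labelled libraries in WT 2 in both FPKM and TPM. Gimap1, Gimap5, Gimap7 and Gimap9 were highest there in FPKM, but in TPM Gimap5, Gimap7 and Gimap9 were lowest in WT 2 and Gimap1 was highest in WT 3. The NK-cell sum of WT 2 was also the highest in FPKM, an order that may rest on the scale of WT 2 as well. Of its 1288 FPKM, 1072 were of Tyrobp, which myeloid cells express too. Eomes, Klrb1c, Il2rb and Ncr1 were lowest of the WT-labelled libraries in WT 2.

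The protein-coding genes nearest to the mean Gimap profile were Rtl8c, Ccdc43, Stx1a, Ssh1 and Camk2n1. Likeness was the root mean square difference of centred log2(FPKM + 1) values over the 6 libraries, which lay between 0.111 and 0.150 for these 5 among 10380 genes compared. Each had 5.57 to 11.6 FPKM in the WT-labelled and at most 0.544 FPKM in the KO-labelled libraries. They passed the filter through the WT-labelled libraries alone. Their KO-labelled values lie near the floor of the log2(FPKM + 1) scale, so the likeness rests in part on that scale. Of the members themselves, Gimap6 lay nearest to the mean profile at 0.265 and Gimap3 farthest at 1.93.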

How the data were processed

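RNA-seq values of 6 libraries of mouse BM cells were analysed, 3 labelled WT and 3 labelled KO. The authors sequenced total RNA of NEBNext libraries in paired-end mode on a NovaSeq and tested differences with DESeq2. The submitters' processing notes name HISAT2 2.0.5, featureCounts 1.5.0-p3 and GRCm38. The deposited unit is FPKM, computed by the authors per gene, which is no count, so limma was used here and the count model was not. Coordinates matched GENCODE M21 (GRCm38) for 53548 of 54532 genes. FPKM times gene length gave whole reads within 0.01 for 100% of values above 0, which summed to 13015823 to 18235095 reads on annotated genes per library. This sum was 1.55 times the library size implied by the FPKM in WT 2, against 0.827 to 0.994 times in the others. The FPKM carry a scaling factor per library that the sources used here do not explain.

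The 13393 genes that reached 1 FPKM in 3 or more of the 6 libraries were compared as log2(FPKM + 1), a scale that understates changes of low genes, by limma 3.58.1 with an intensity trend (R 4.3.3, data.table; two-sided, Benjamini-Hochberg over all genes, threshold 0.05). The model was tested on simulated data. Shares used exact permutation tests. Other software was Biopython 1.88, Matplotlib 3.10.9, SciPy 1.17.1, NumPy 2.4.6, pandas 2.3.3 and Python 3.11.15. Members, gene lists and tests were chosen with earlier results of these data known. Named are all members, Phf6, other Gimap-named genes, tested protein-coding genes within 500000 bases, up to 3 genes of each list by smallest p where the text names any, and the 5 nearest profiles. Further list genes are named where the make-up of a list or its sum is described. Alternatives were pseudocounts of 0.5 and 0.1, no filter, a mean of 5 FPKM or more, scaling by median of ratios, quantiles, TPM or CD3, no trend, array weights, a replicate block, voom on the recovered reads, a threshold of 0.01 and each library left out, and, added after seeing the data, TPM without WT 2.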

Additional observations from a re-analysis of the deposited data

How the results depend on the processing

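Of the 8 members, 6 were called lower in the main fit and in most alternatives, and none was called higher in any. Rescaling to TPM left 3, and leaving out 1 library gave 5 to 7 (5 without KO 1 or KO 2, 7 without WT 2). All genes called came to 3539, but to 1837 at a mean FPKM of at least 5, 8461 with array weights, 1812 at a threshold of 0.01, 7761 with TPM and without WT 2, and 1934 to 6967 with 1 library left out, the highest without WT 2 and the lowest without KO 2. The sign turned for Gimap9 under TPM (0.26) and for Gimap1 under TPM (0.34), array weights (0.067) and TPM without WT 2 (0.26), none of them called. The log2 ratio of the summed Gimap FPKM was -3.28, -2.68 in TPM, and -3.44 to -3.06 with 1 library left out. The causes were not tested. The replicate numbers did not pair the libraries (correlations of deviations 0.0954, 0.105 and -0.153); a fit with the number as a block called 2676 genes and the same 6 members. With 3 libraries a group, a single value cannot reach an exact p under 0.1, and the lowest member value rests on 53 reads.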
